A study of Mus musculus with 11 samples.

Results

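RNA of p53 and of 9 genes that p53 switches on was compared between groups of mouse embryonic stem cells. The chromatin protein CTCF was present, depleted, or depleted with an intact or a mutated form reintroduced. The 10 genes were taken by name: Trp53, which encodes p53, and the targets Cdkn1a, Mdm2, Ccng1, Btg2, Plk2, Trp53inp1, Bax, Phlda3 and Zmat3. All 10 of the 10 symbols were among the 55228 symbols of the count table, and all 10 were among the 16420 genes with enough counts to be tested.

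p53 is a transcription factor that is kept scarce by Mdm2, a ubiquitin ligase that marks it for destruction, and that accumulates when DNA is damaged or the cell is stressed. It binds paired copies of a short element near its targets and raises their transcription. Because Mdm2 is itself a target, the pair forms a feedback loop, and because p53 is controlled largely as a protein, the level of Trp53 RNA says little about its activity. Embryonic stem cells divide rapidly and are known to express p53 at a high level. The p53 protein was not analysed here.

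All cells were of EN52.9.1, a mouse embryonic stem cell line in which the endogenous CTCF protein carries an auxin-inducible degron (CTCF-AID), so that 500 µM of the auxin analogue indole-3-acetic acid leads to its destruction. CTCF recognises DNA through its zinc fingers and anchors the loops into which chromatin is folded. By their labels the 11 libraries fell into EV cells without auxin (EV untreated, 3 libraries, genotype given as wild-type), EV cells with auxin (EV auxin, 2 libraries, endogenous CTCF depleted), auxin-treated cells with reintroduced FL CTCF (FL auxin, 3 libraries) and auxin-treated cells with reintroduced CTCF carrying H373R, a histidine-to-arginine substitution (H373R auxin, 3 libraries, titled ZF4). What EV stands for was not assumed, how long auxin was present is not given in the sources used here, and no auxin-treated line without the degron was analysed here, so the effect of auxin itself and that of CTCF loss cannot be told apart. FL and H373R cells were analysed with auxin only. Their differences from EV cells may include differences between the cells themselves, which cannot be told apart from those due to the CTCF form. Below, genes that rose or fell were higher or lower in one group than in another. All libraries come from 1 parental line, and the labels do not say whether replicates were separate cultures. The p-values therefore measure the spread between these libraries, which may be technical.

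The total count per library was 13465241 to 29902246, and each of the 10 genes had 610 to 12633 counts in each library. Ctcf RNA, at 294 to 364 CPM (counts of a library brought to a common total with TMM scaling) over all libraries, differed between no 2 groups at an adjusted p under 0.05, and it checks neither the loss of the protein nor the reintroduction. All 8 markers of embryonic stem cells were above 1 TPM (counts scaled by gene length and then to a common total) in every library. Their summed level was 9707 to 10670 TPM, but markers within it differed in opposite directions. Mean Nanog was 1215 TPM without auxin, 872 with FL CTCF and 964 with H373R CTCF, and Zfp42 was 1476, 1141 and 1030. Dppa5a, the largest part of the sum, was higher with either form (3810, 4624 and 4121), as was Klf4 (420, 508 and 548). In EV auxin, Nanog was at 1160 TPM, Zfp42 at 1474, Dppa5a at 3581 and Klf4 at 546. The summed level of 5 primitive endoderm markers was 9.30 to 11.1 TPM in EV untreated, 12.98 to 14.7 in EV auxin, 35.9 to 37.8 in FL auxin and 23.9 to 26.0 in H373R auxin. The summed levels of 6 fibroblast markers (65.0 to 91.4 TPM) and of 4 trophoblast markers (30.7 to 63.0 TPM) had their maxima in FL auxin. Single markers did not all follow these sums. Most of the trophoblast sum was Krt8, at a mean of 29.1 TPM in EV untreated, 31.3 in EV auxin, 49.6 in FL auxin and 40.4 in H373R auxin. Mean Cdx2 was highest in FL auxin (3.20 TPM), Elf5 in EV untreated (0.185) and Eomes in H373R auxin (6.16). None of these 15 markers was listed at 0 in all libraries, and the part of such cells in the results below was not tested. In bulk RNA, fewer cells of a type and less RNA per cell cannot be told apart.

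One library stood apart from its group. In EV untreated replicate 1, the difference from the mean of replicates 2 and 3 went with the GC content of the transcript (Pearson r = 0.559 across 16242 genes, which are not independent replicates). The median log2 difference ran from -0.32 for genes of up to 40% GC to 0.36 for genes above 60% GC. Phlda3 (62.6% GC) was 0.48 higher on the log2 scale in that library and Bax (63.5%) was 0.31 higher. Trp53inp1 (38.8%) was -0.41 and Ccng1 (40.8%) was -0.33 from the other replicates. Trp53, Btg2, Plk2 and Zmat3, with 47.6% to 53.3% GC, lay within 0.06 of them. Counts of called genes in the comparisons of EV auxin with EV untreated, and of reintroduced CTCF with EV auxin or EV untreated, are therefore also given without this library and from counts with the trends in GC content and gene length removed. The trends were fitted in every library against the mean of all libraries, so a trend shared by a whole group is removed as well. These settings can move a value in opposite directions. In EV auxin against EV untreated, the log2 fold change of Bax was -0.25 with all libraries, -0.15 without this library and -0.37 with trends removed. For Phlda3 it was -0.84, -0.68 and -0.96.

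**Figure D1:**
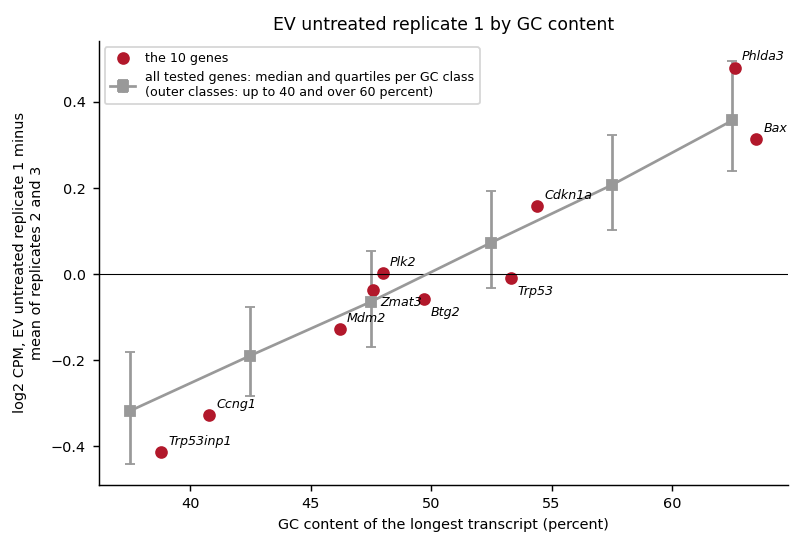
Difference between EV untreated replicate 1 and the mean of replicates 2 and 3 (vertical axis, log2 CPM) against GC content of the longest transcript (horizontal axis, percent). Red points are the 10 genes, and grey squares with bars are the median and quartiles of all tested genes in 6 GC classes, from -0.32 in the lowest class to 0.36 in the highest; Phlda3 and Bax lie high and Ccng1 and Trp53inp1 low, along the trend of all genes.

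Promoter windows from RefSeq (GRCm38.p6), 250 bases before the annotated start, were found for 8 of the 10 genes. They are given for 4 genes to show letter matches within these windows. The matches are to p53 half-sites, to letters of the CTCF core, and to a G-quadruplex motif, the DNA structure named in the title of the study. Capitals mark the matches, exonic bases of GENCODE M21 were cut off, and each sequence reads 5′ to 3′ on the strand of its gene. The windows are chr17:29090729-29090975 on the plus strand for Cdkn1a, chr10:117710759-117711008 on the minus strand for Mdm2, chr11:40755312-40755536 on the minus strand for Ccng1 and chr1:134079156-134079405 on the minus strand for Btg2.
Cdkn1a: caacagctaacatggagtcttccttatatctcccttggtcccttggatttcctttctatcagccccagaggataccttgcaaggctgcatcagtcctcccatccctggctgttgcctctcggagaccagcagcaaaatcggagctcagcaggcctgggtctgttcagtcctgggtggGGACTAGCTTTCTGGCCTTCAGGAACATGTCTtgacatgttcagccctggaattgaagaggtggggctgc
Mdm2: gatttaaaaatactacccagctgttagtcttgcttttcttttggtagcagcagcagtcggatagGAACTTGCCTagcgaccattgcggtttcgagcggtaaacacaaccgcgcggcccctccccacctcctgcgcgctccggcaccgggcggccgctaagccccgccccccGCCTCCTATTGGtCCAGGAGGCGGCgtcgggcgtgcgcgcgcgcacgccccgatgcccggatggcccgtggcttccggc
Ccng1: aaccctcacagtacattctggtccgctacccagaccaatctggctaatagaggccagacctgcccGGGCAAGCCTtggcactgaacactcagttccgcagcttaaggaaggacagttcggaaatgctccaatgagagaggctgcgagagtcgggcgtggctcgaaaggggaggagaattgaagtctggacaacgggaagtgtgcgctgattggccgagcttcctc
Btg2: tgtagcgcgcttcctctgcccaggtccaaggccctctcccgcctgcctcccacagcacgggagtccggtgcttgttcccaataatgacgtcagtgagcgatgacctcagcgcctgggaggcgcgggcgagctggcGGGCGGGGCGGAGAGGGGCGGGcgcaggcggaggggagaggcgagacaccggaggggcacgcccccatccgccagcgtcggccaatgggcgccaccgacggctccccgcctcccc

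Both strands were searched, and matches of different motifs could overlap. A gene was counted once if any of its windows held the motif. The p53 half-site lay upstream of 5 of the 8 genes (Bax, Ccng1, Cdkn1a, Mdm2 and Trp53) and of 8.20% of 27025 RefSeq genes with windows of the same length. A p53 element, taken as 2 half-sites matched in every letter with a spacer of 0 to 13 bases, lay upstream of 0.0666% of genes. Among the 8 it was found for Cdkn1a alone, from 73 to 42 bases upstream. Positions are counted from the RefSeq start of each window. For Cdkn1a and Ccng1 exonic bases between this start and the printed sequence were cut off. In Cdkn1a the bases tgacatgttc, directly after the second marked half-site, did not match the half-site in every letter and are not marked. The CTCF core letters, CCA, NN, AG, NN and GGC in a row, lay upstream of 2.41% of genes and of Mdm2 alone among the 8, once on each strand, from 79 to 68 and from 66 to 55 bases upstream. The half-site of Mdm2 lay farther out, 186 to 177 bases upstream, and that of Ccng1 185 to 176 bases upstream. A G-quadruplex motif, 4 runs of GGG with loops of 1 to 7 bases, lay upstream of 18.4% of genes and, among the 8, of Btg2 (115 to 94 bases upstream) and Phlda3 (66 to 39 bases upstream, opposite strand). Sites that depart from the pattern in a letter were not counted, and sites outside the windows, within the gene or farther away, were not searched. A gene without a match may therefore still have a p53 element. A match of letters is a description, and no binding was measured in the libraries analysed here.

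In EV untreated cells the 10 genes differed widely in RNA per length. Trp53 was at 393 ± 8.13 TPM (SD, n = 3), Bax, which permeabilises mitochondria in apoptosis, at 362 ± 46.3 and Ccng1, which encodes cyclin G1, at 329 ± 42.2, and neighbours in this order overlapped between libraries. Phlda3, an inhibitor of Akt signalling, followed at 205 ± 41.2 TPM. The levels of Btg2 (124 ± 3.42 TPM), Mdm2 (124 ± 7.09), Cdkn1a (121 ± 7.51) and Trp53inp1 (113 ± 18.4) did not differ beyond their spread. Plk2 (49.6 ± 1.24 TPM) and Zmat3 (45.3 ± 0.834) were lowest, and their libraries did not overlap. In EV auxin this order changed: Mdm2, at 105 to 110.0 TPM, was above Cdkn1a at 70.6 to 71.6, Btg2 at 64.0 to 70.8 and Trp53inp1 at 66.9 to 67.9 TPM.

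After auxin, 8 of the 10 genes fell and none rose. In EV auxin against EV untreated, the edgeR test (adjusted p under 0.05) called Cdkn1a, Mdm2, Ccng1, Btg2, Plk2, Trp53inp1, Phlda3 and Zmat3 lower, while 9.40% of all tested genes were called lower and 11.3% higher. Bax and Trp53 had the same sign and did not pass. The median log2 fold change of the 10 was -0.74, and that of all tested genes was 0.01. For all 10 genes both EV auxin libraries lay below all 3 EV untreated libraries, a pattern seen for 20.4% of tested genes. DESeq2 called 9 of the 10 lower, and limma on log2(TPM + 1) called 8. Over all genes and in either direction, DESeq2 called 2876 and limma 2728, beside 3392 with edgeR.

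**Figure D2:**
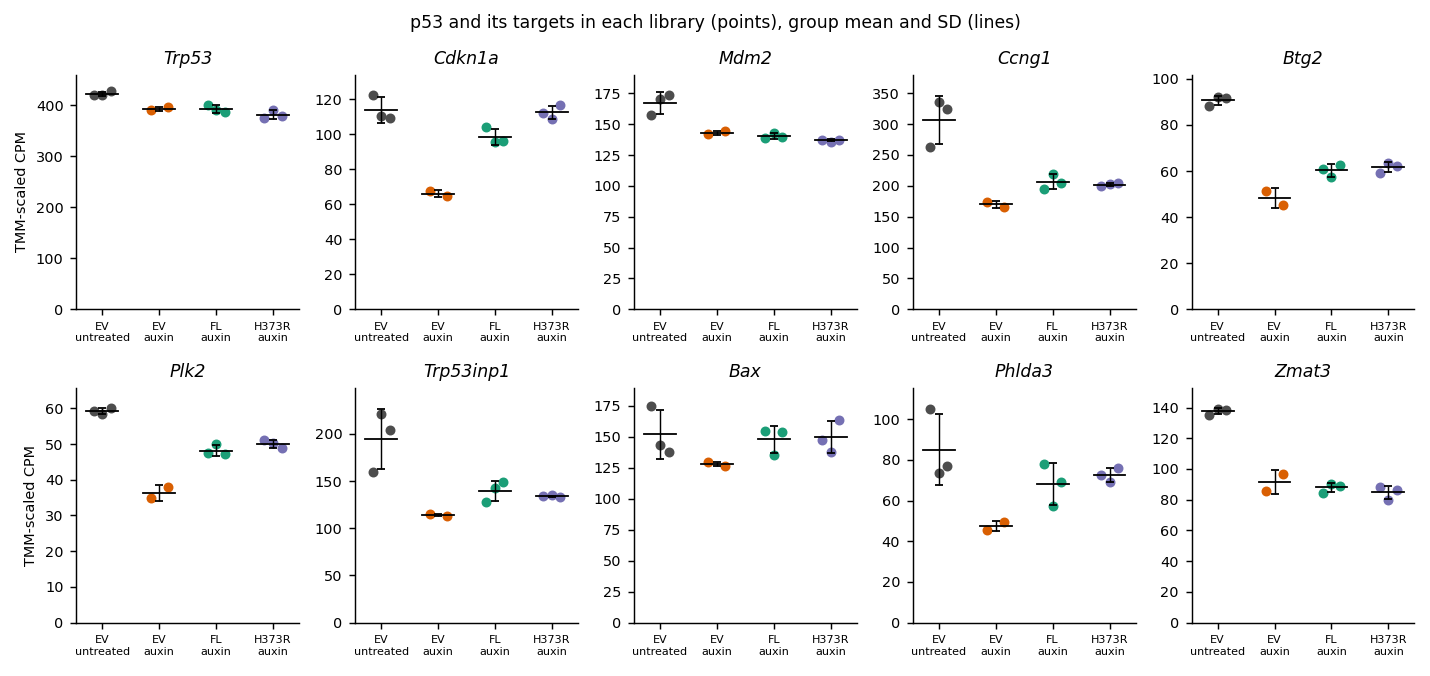
TMM-scaled CPM (vertical axes, linear from 0) of the 10 genes in the 4 groups; points are libraries, and lines are the group mean and SD over 3 libraries (2 in EV auxin). EV auxin lies lowest for Cdkn1a, Ccng1, Btg2, Plk2, Trp53inp1, Bax and Phlda3. The range of EV untreated is overlapped by H373R auxin for Cdkn1a, Bax and Phlda3, and by FL auxin for Bax and Phlda3. Zmat3 and Mdm2 stay near their EV auxin level in FL and H373R auxin.

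Among the genes of cell cycle arrest, Cdkn1a encodes p21, the inhibitor of cyclin-dependent kinases through which p53 halts the cycle. Its level was 122, 110.1 and 109 CPM in the 3 EV untreated libraries, 67.4 and 64.7 in EV auxin, 104, 95.7 and 95.9 in FL auxin, and 112, 109 and 116 in H373R auxin. EV auxin stood below every other library, and H373R auxin overlapped EV untreated. Cdkn1a fell by 0.79 ± 0.07 (log2 fold change ± SE) after auxin, which is 42.1% fewer (edgeR adjusted p = 4.18e-07). Btg2, an antiproliferative partner of the mRNA deadenylation machinery, was at 88.2, 92.0 and 91.8 CPM in EV untreated, 51.5 and 45.3 in EV auxin, 61.0, 57.3 and 62.7 in FL auxin, and 59.3, 63.5 and 61.97 in H373R auxin. Its groups with auxin all lay below EV untreated without overlap. Btg2 had the largest fall of the 10 in this fit, -0.91 ± 0.07 or 46.7% fewer (edgeR adjusted p = 1.11e-07). Ccng1 (-0.85 ± 0.08) and Phlda3 (-0.84 ± 0.14) lay close. Without EV untreated replicate 1 Ccng1 had a larger fall than Btg2 (-0.97 and -0.95). With GC and length trends removed Phlda3 did (-0.96 and -0.95).

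Ccng1, whose product works with protein phosphatase 2A and Mdm2 to hold p53 down, had 263, 335 and 324 CPM in EV untreated, 174 and 166 in EV auxin, 195, 219.5 and 205 in FL auxin, and 199, 203 and 204 in H373R auxin. The first EV untreated value comes from the library that followed GC content, and it was still above every library with auxin. Ccng1 fell by 0.85 ± 0.08, 44.7% fewer (edgeR adjusted p = 3.25e-06), and by 0.97 without that library. Plk2, a polo-like kinase of the stress response and of centriole duplication, was at 59.3, 58.4 and 60.1 CPM in EV untreated, 34.8 and 37.9 in EV auxin, 47.4, 49.9 and 47.1 in FL auxin, and 51.2, 50.2 and 48.8 in H373R auxin. The 3 levels of Plk2 (untreated, depleted, CTCF reintroduced) did not overlap. Plk2 fell by 0.70 ± 0.06 after auxin, 38.6% fewer (edgeR adjusted p = 6.81e-07).

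Among the genes of cell death and survival signalling, Trp53inp1, which promotes p53 phosphorylation and autophagy, was at 159.7, 221 and 205 CPM in EV untreated, 115 and 113 in EV auxin, 127, 143 and 149 in FL auxin, and 134, 135 and 134 in H373R auxin. It fell by 0.77 ± 0.10 after auxin (edgeR adjusted p = 6.40e-05) and by 0.91 without EV untreated replicate 1. Phlda3 had 105, 73.4 and 77.0 CPM in EV untreated, 45.6 and 49.3 in EV auxin, 78.0, 57.5 and 69.0 in FL auxin, and 72.7, 69.1 and 75.9 in H373R auxin. The fall of Phlda3 after auxin was -0.84 ± 0.14 (edgeR adjusted p = 3.93e-04), and -0.68 without EV untreated replicate 1, which held its highest value. Bax was at 174, 143 and 138 CPM in EV untreated, 129 and 127 in EV auxin, 155, 135 and 153 in FL auxin, and 147, 138 and 163 in H373R auxin. Its difference after auxin, -0.25 ± 0.09, did not pass (edgeR adjusted p = 0.0781), nor did that without EV untreated replicate 1 (-0.15, adjusted p = 0.0915), whereas with the GC and length trends removed Bax was called lower (-0.37, adjusted p = 1.77e-05). A share of 12.2% of the exon bases of Bax is also annotated to Gm45808, which had at most 1 count in a library.

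Zmat3, an RNA-binding zinc finger protein of the p53 growth-suppressing response, was at 135, 139 and 138 CPM in EV untreated, 85.8 and 97.0 in EV auxin, 84.4, 90.5 and 89.0 in FL auxin, and 88.2, 79.7 and 86.2 in H373R auxin. EV untreated stood apart, and the 3 groups with auxin overlapped. Zmat3 fell by 0.59 ± 0.06 after auxin, 33.6% fewer (edgeR adjusted p = 7.28e-06).

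In the edgeR test on all libraries the 2 genes of the feedback loop had the smallest differences of the 10 after auxin, but Bax (-0.25 ± 0.09) lay close to Mdm2. Without EV untreated replicate 1 the difference of Bax (-0.15) was smaller than that of Mdm2 (-0.28). Mdm2 was at 157, 170.1 and 174 CPM in EV untreated, 142 and 144 in EV auxin, 139, 143 and 139.5 in FL auxin, and 137, 136 and 137 in H373R auxin. Mdm2 fell by 0.22 ± 0.05 after auxin, 14.3% fewer (edgeR adjusted p = 0.00590), and without EV auxin replicate 1 the fall did not pass (adjusted p = 0.0639). Trp53 had 421, 419.6 and 427 CPM in EV untreated, 390.0 and 396 in EV auxin, 401, 389.8 and 387 in FL auxin, and 374, 391 and 379.8 in H373R auxin. All libraries with auxin lay below those without, by a small margin. The difference after auxin was -0.11 ± 0.04, 7.02% fewer, and did not pass (edgeR adjusted p = 0.111). It passed without EV untreated replicate 1 (-0.12, adjusted p = 0.0438) and with the GC and length trends removed (-0.17, adjusted p = 0.00306).

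With GC and length trends removed, all 10 genes were called lower after auxin, against 15.9% of tested genes. Without EV untreated replicate 1, 9 were, against 17.4%, with Bax as the exception. In the fit without that library the falls were -0.75 for Cdkn1a, -0.95 for Btg2, -0.72 for Plk2, -0.61 for Zmat3 and -0.28 for Mdm2. With the trends removed they were -0.87 for Cdkn1a, -0.95 for Btg2, -0.73 for Plk2, -0.55 for Zmat3, -0.22 for Mdm2, -0.81 for Ccng1, -0.69 for Trp53inp1 and -0.96 for Phlda3. Of the 8 genes that fell, 7 also fell without EV auxin replicate 1 (all but Mdm2), against 5.10% of tested genes, and 8 without EV auxin replicate 2, against 4.81%. In those fits the remaining EV auxin library is assumed to vary like the other groups.

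**Figure D3:**
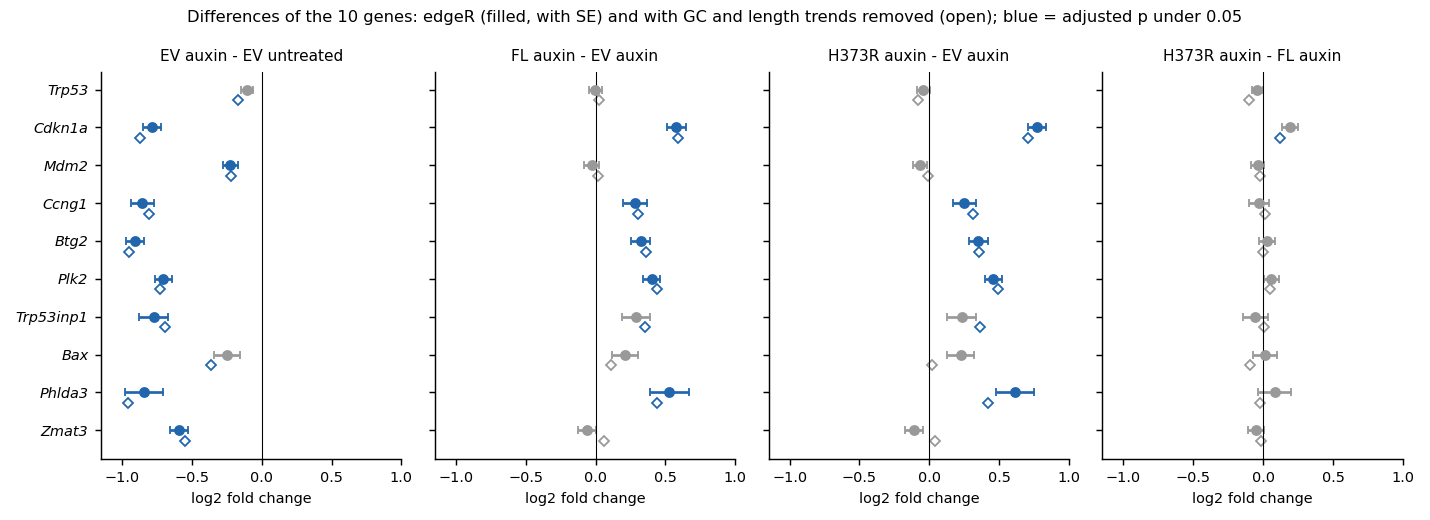
Log2 fold change (horizontal axis) of the 10 genes in 4 comparisons; filled points with bars are edgeR estimates with their SE, open diamonds are estimates with GC and length trends removed, and blue marks an adjusted p under 0.05. The 8 filled blue points of EV auxin against EV untreated lie below 0, and the 5 in each of FL and H373R auxin against EV auxin lie above 0.

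With FL CTCF part of the group was higher. Against EV auxin, Cdkn1a, Ccng1, Btg2, Plk2 and Phlda3 rose in FL auxin and no gene of the 10 fell, with 11.1% of all tested genes called higher and 13.4% lower. Their median log2 fold change was 0.29 over the 10 genes, against -0.01 over all tested genes. In 7 of the 10 all FL auxin libraries lay above both EV auxin libraries, as they did for 24.8% of tested genes. Cdkn1a rose by 0.58 ± 0.07, 49.3% more (edgeR adjusted p = 2.44e-05), Plk2 by 0.40 ± 0.06 (adjusted p = 3.19e-04) and Btg2 by 0.32 ± 0.07 (adjusted p = 0.00272). Phlda3 rose by 0.53 ± 0.14 (adjusted p = 0.0119) and Ccng1 by 0.28 ± 0.08 (adjusted p = 0.0237). Trp53inp1 (0.29 ± 0.10, adjusted p = 0.0523) and Bax (0.21 ± 0.09, adjusted p = 0.121) did not pass. Zmat3 (-0.06 ± 0.06), Mdm2 (-0.03 ± 0.05) and Trp53 (-0.0009 ± 0.04) did not pass either. Intervals of 2 SE on each side were -0.19 to 0.07 for Zmat3, -0.13 to 0.08 for Mdm2 and -0.09 to 0.09 for Trp53.

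With H373R CTCF, Cdkn1a, Ccng1, Btg2, Plk2 and Phlda3 rose against EV auxin, and 10.03% of all tested genes were called higher and 11.7% lower in this comparison. The 2 rescue comparisons share the EV auxin libraries, so their values stand side by side and are not independent. Cdkn1a rose by 0.77 ± 0.07, 70.4% more (edgeR adjusted p = 6.85e-06), and its log2 fold change was above that of 98.4% of tested genes. Phlda3 rose by 0.61 ± 0.14 (adjusted p = 0.00546), Plk2 by 0.46 ± 0.06 (adjusted p = 1.70e-04), Btg2 by 0.35 ± 0.07 (adjusted p = 0.00176) and Ccng1 by 0.25 ± 0.08 (adjusted p = 0.0431). The other 5 were not called: Trp53inp1 was at 0.23 ± 0.10, Bax at 0.22 ± 0.09, Trp53 at -0.04 ± 0.04, Mdm2 at -0.07 ± 0.05 and Zmat3 at -0.11 ± 0.06. The median of the 10 was 0.24, and that of all tested genes was 0.0003. In 7 of the 10 the H373R auxin libraries lay above both EV auxin libraries, against 28.4% of tested genes, and for Mdm2 they lay below, against 28.6%.

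These counts rest on 2 EV auxin libraries. Without EV auxin replicate 1, Cdkn1a, Btg2 and Plk2 were called higher in FL auxin and in H373R auxin (3 of the 10 in each, against 5.50% and 3.36% of tested genes). Without EV auxin replicate 2, Cdkn1a and Plk2 were called in FL auxin (2 of the 10, against 5.57%) and Cdkn1a, Plk2 and Phlda3 in H373R auxin (3 of the 10, against 4.01%). Without EV untreated replicate 1, which enters through the shared estimate of spread, 7 were called in each, with Trp53inp1 and Bax added, against 18.4% and 16.7% of tested genes. With GC and length trends removed, 6 were called in each, with Trp53inp1 added at 0.36 in both, against 20.7% and 17.2%. The limma test on log2(TPM + 1) called 3 in FL auxin, without Ccng1 (adjusted p = 0.115) and Phlda3 (adjusted p = 0.0649), and 4 in H373R auxin. Over all genes and in either direction, this limma test called 3706 in FL auxin and 2886 in H373R auxin. The call of Ccng1 was also lost without FL auxin replicate 2 in FL auxin (adjusted p = 0.0799), and in H373R auxin without any 1 of its 3 libraries (adjusted p = 0.0748 to 0.0989) or FL auxin replicate 3 (adjusted p = 0.0582). That of Phlda3 in FL auxin was lost without FL auxin replicate 1 (adjusted p = 0.0527).

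**Figure D4:**
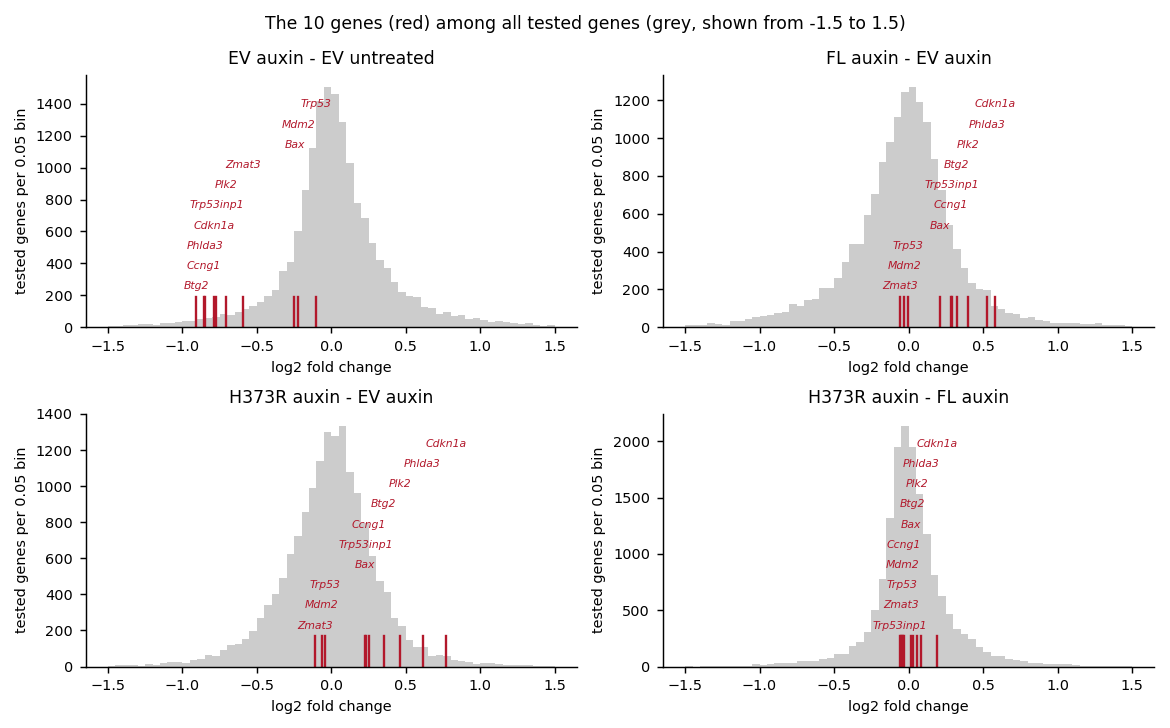
Distribution of the log2 fold change (horizontal axis) of all tested genes (grey, number of genes per bin of 0.05) in 4 comparisons, with the 10 genes as red ticks, named above in the order of their values. The medians of the 10 are -0.74 after auxin, 0.29 with FL CTCF and 0.24 with H373R CTCF, and -0.01 between the H373R and FL forms.

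Between the 2 forms of CTCF no gene of the 10 differed at an adjusted p under 0.05. In H373R auxin against FL auxin, edgeR called 5.96% of all tested genes in either direction and 0 of the 10, with 1 at an unadjusted p under 0.05. DESeq2 called 0 of the 10 and 897 genes in all, and limma on log2(TPM + 1) called 1 of the 10 and 849 in all. The 1 gene of the 10 was Cdkn1a, at 109 to 116 CPM in H373R auxin and 95.7 to 104 in FL auxin. Its 3 H373R libraries lay above all 3 FL libraries, as for 15.4% of tested genes. The difference was 0.19 ± 0.06, 14.1% more, with an interval of 0.08 to 0.30 and an edgeR adjusted p of 0.0616. Across the alternatives its adjusted p lay between 0.00777 (without EV untreated replicate 1, difference 0.18) and 0.262 (without H373R auxin replicate 3, difference 0.16), so this call depended on the libraries and settings used. With GC and length trends removed it was 0.12 (adjusted p = 0.0420). For the other 9 genes the estimates lay from -0.06 (Trp53inp1) to 0.08 (Phlda3). Their intervals were narrowest for Trp53, -0.12 to 0.04, and widest for Phlda3, -0.16 to 0.32. Mdm2 was lower in all H373R libraries than in all FL libraries (-0.04 ± 0.05, adjusted p = 0.705), as for 13.4% of tested genes.

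Set against EV untreated, the 10 genes ended at different distances. In FL auxin 9 were called lower, against 19.2% of tested genes, and in H373R auxin 7 were, against 22.1%. Without EV untreated replicate 1 the counts were 8 in FL auxin, against 23.8%, and 7 in H373R auxin, against 27.7%. The median log2 fold change of the 10 was -0.31 in FL auxin and -0.27 in H373R auxin, and medians of all tested genes were 0.002 and 0.005. Cdkn1a was -0.21 ± 0.06 from EV untreated in FL auxin (edgeR adjusted p = 0.00875) and -0.02 ± 0.06 in H373R auxin, with an interval of -0.13 to 0.09. With GC and length trends removed the H373R value of Cdkn1a was -0.16 and passed (adjusted p = 8.38e-04). Zmat3 was farthest from EV untreated in this fit, at -0.65 ± 0.06 in FL auxin and -0.70 ± 0.06 in H373R auxin. With GC and length trends removed Btg2 was farthest, at -0.59 in FL auxin and -0.59 in H373R auxin, beside -0.49 and -0.51 for Zmat3. Without EV untreated replicate 1 Ccng1 (-0.68) was farther than Zmat3 (-0.66) in FL auxin. Btg2 (-0.58 and -0.56), Ccng1 (-0.57 and -0.60) and Trp53inp1 (-0.48 and -0.54) were lower in both, as were Plk2 (-0.30 and -0.25) and Mdm2 (-0.25 and -0.29).

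Bax was called in neither comparison with EV untreated (-0.04 and -0.02). Phlda3 was -0.32 in FL auxin (adjusted p = 0.0477) and -0.23 in H373R auxin (adjusted p = 0.118), and without EV untreated replicate 1 its FL auxin value was -0.13 (adjusted p = 0.160). Trp53 was -0.11 in FL auxin (adjusted p = 0.0475) and -0.15 in H373R auxin (adjusted p = 0.00693). Its FL auxin call was lost on leaving out any single library but EV untreated replicate 1 (adjusted p = 0.0550 to 0.137), and that of Phlda3 on leaving out any of 8 libraries (adjusted p = 0.0632 to 0.196). With GC and length trends removed, all 10 genes were called lower in both comparisons, against 20.8% and 24.3% of tested genes. Averaged over the 10 genes, the log2 difference from the EV untreated mean was -0.60 and -0.59 in the EV auxin libraries, -0.34, -0.37 and -0.33 in FL auxin and -0.33, -0.35 and -0.31 in H373R auxin.

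Other p53 targets changed in both directions after auxin. Shares of all tested genes called lower and higher are given beside the counts of each list. With GC and length trends removed, 15.9% of tested genes were lower and 14.5% higher in EV auxin against EV untreated, 15.04% and 20.7% in FL auxin against EV auxin, and 13.8% and 17.2% in H373R auxin against EV auxin. Without EV untreated replicate 1 the shares were 17.4% lower and 15.96% higher after auxin, 17.2% and 18.4% in FL auxin, and 16.3% and 16.7% in H373R auxin.

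Of 13 further targets of cell death, 9 fell and 1 rose in EV auxin against EV untreated (9.40% and 11.3% of all tested genes), with a median log2 fold change of -0.43. Under either of those settings 10 fell and 1 rose. Eda2r, a death receptor of the TNF receptor family, fell from 61.0 ± 7.40 (SD, n = 3) to 31.6 ± 0.602 CPM (SD, n = 2), a difference of -0.94 ± 0.10 (edgeR adjusted p = 5.49e-06). Perp, a membrane protein that takes part in apoptosis, fell by 0.55 ± 0.06 and rose in FL auxin (0.48) and H373R auxin (0.46) to 36.1 and 35.4 CPM, beside 37.8 CPM in EV untreated. Apaf1, the scaffold of the apoptosome, fell by 0.50 ± 0.07. Casp8, an initiator caspase, was the gene of this list that rose (0.53).

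In FL auxin against EV auxin 2 of the 13 rose (Perp and Pmaip1) and 1 fell (Casp8), with 11.1% of tested genes higher and 13.4% lower. In H373R auxin 3 rose (Perp, Pmaip1 and Bbc3) and none fell, with 10.03% higher and 11.7% lower. After removal of the trends 6 rose and 1 fell in FL auxin, against 20.7% and 15.04% of tested genes, and 5 rose and none fell in H373R auxin, against 17.2% and 13.8%. Without EV untreated replicate 1, 4 rose in each, against 18.4% and 16.7%, and 1 fell in FL auxin. Here and in the lists below, Casp8 and the other genes named beyond the 3 of smallest adjusted p were named after their values were seen.

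Of 22 further targets of arrest, repair and metabolism, 10 fell and 3 rose after auxin (Sesn1, Sfn and Xpc), against 9.40% and 11.3% of all tested genes, with a median of -0.23. After removal of the trends 11 fell and 4 rose (15.9% and 14.5% of tested genes), and without EV untreated replicate 1, 11 fell and 3 rose (17.4% and 15.96%). Zfp365, which protects replication forks, fell by 0.68 ± 0.06, Slc19a2, a thiamine transporter, by 0.51 ± 0.05 and Ercc5, a nuclease of nucleotide excision repair, by 0.45 ± 0.06. In FL auxin against EV auxin 6 of the 22 rose and 1 fell (Mdm4), beside 11.1% and 13.4% of tested genes, and in H373R auxin 4 rose (Slc19a2, Ddit4, Pml and Sfn) and 1 fell (Mdm4), beside 10.03% and 11.7%. After removal of the trends 8 rose and 1 fell in FL auxin, and 9 rose and 2 fell in H373R auxin, where 17.2% and 13.8% of tested genes did. Without EV untreated replicate 1, 7 rose and 2 fell in each, where 18.4% and 17.2% of tested genes did in FL auxin and 16.7% and 16.3% in H373R auxin. Between the 2 forms of CTCF, Ercc5 was higher in H373R auxin, at 104 ± 0.366 CPM (SD, n = 3) against 89.7 ± 4.49 (SD, n = 3) in FL auxin (0.21 ± 0.05, edgeR adjusted p = 0.0214).

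**Figure D5:**
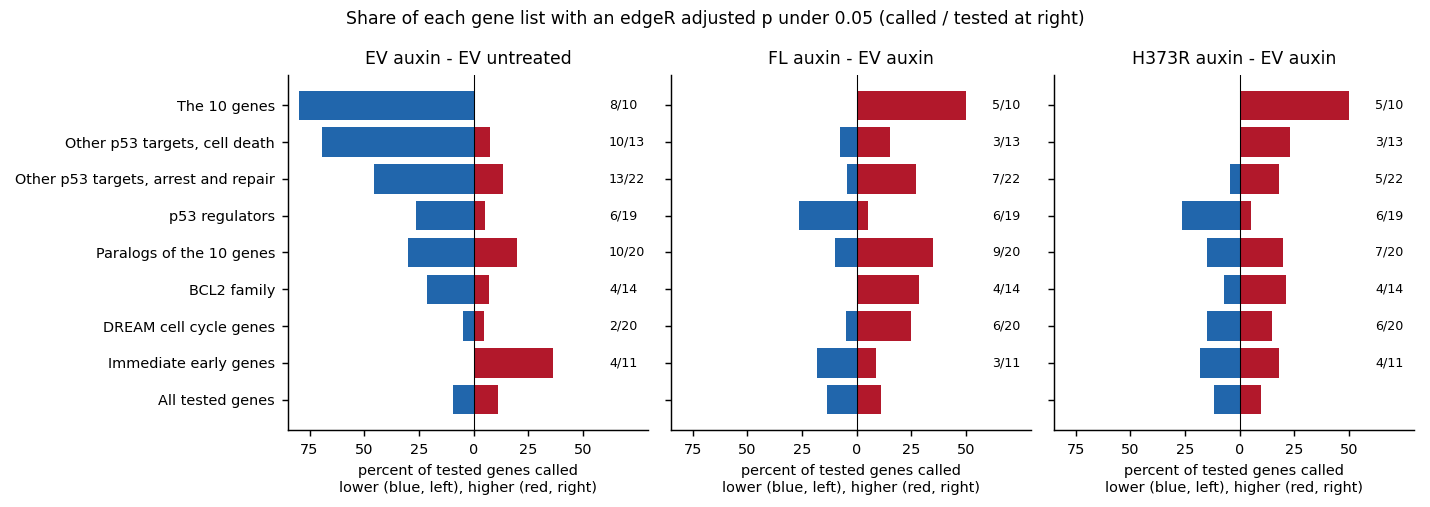
Percent of tested genes of each list called lower (blue, left) or higher (red, right) at an edgeR adjusted p under 0.05 in 3 comparisons, with called over tested genes at the right of each panel and all tested genes in the bottom bar. After auxin 8 of the 10 genes and 9 of 13 further cell death targets were lower, beside 9.40% of all tested genes. Of 20 cell cycle genes 1 was lower and 1 was higher, beside 9.40% and 11.3% of all tested genes. In settings not shown, 5 of the 20 were lower and 3 higher with GC and length trends removed (15.9% and 14.5% of tested genes). Without EV untreated replicate 1, 6 were lower and 2 higher (17.4% and 15.96%).

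Of 19 tested regulators of p53, 5 fell (Mdm4, Rchy1, Trp73, Cop1 and Ppm1d) and 1 rose (Trp53bp1) after auxin, beside 9.40% and 11.3% of all tested genes. After removal of the trends 4 fell and 1 rose, and without EV untreated replicate 1, 6 fell and 1 rose. Mdm4, the Mdm2 relative that masks the activation domain of p53, fell from 179 ± 6.68 to 134 ± 2.57 CPM (-0.42 ± 0.06, edgeR adjusted p = 1.42e-04). Where Cdkn1a rose with reintroduced CTCF, Mdm4 was lower again, at 101 ± 7.65 CPM in FL auxin (-0.41 from EV auxin) and 105 ± 0.799 CPM in H373R auxin (-0.36). Rchy1, a ubiquitin ligase for p53, fell by 0.30 ± 0.06 after auxin, and Trp73, a p53 family member, by 0.52 ± 0.12 from 8.44 to 5.81 CPM. Against EV auxin, 5 of the 19 were lower and 1 was higher in FL auxin, beside 13.4% and 11.1% of tested genes, and likewise in H373R auxin, beside 11.7% and 10.03%. In H373R auxin 7 were lower and 3 higher with trends removed (13.8% and 17.2% of tested genes), and 9 were lower and 1 higher without EV untreated replicate 1 (16.3% and 16.7%). In FL auxin 4 were lower and 4 higher with trends removed, and 7 lower and 2 higher without that library. Mdm4, Hipk2, Crebbp and Trp53bp1 were lower in both, with Chek2 in FL auxin and Ep300 in H373R auxin, and the higher genes were Sirt1 in FL auxin and Rchy1 in H373R auxin.

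In the BCL2 family and among the paralogs of the 10 genes, Bak1, which shares the pore-forming function of Bax, had the largest fall after auxin. Bak1 fell from 89.5 ± 3.37 CPM in EV untreated to 15.9 ± 1.57 in EV auxin (-2.50 ± 0.09, edgeR adjusted p = 5.82e-11). It rose to 30.2 ± 1.73 CPM in FL auxin (0.94) and was at 17.2 ± 1.37 in H373R auxin (0.13, adjusted p = 0.340), lower than in FL auxin by -0.81 ± 0.08 (adjusted p = 1.18e-05). The group ranges of Bax, the relative of Bak1 among the 10 genes, overlapped between the 2 forms. Pmaip1, the BH3-only protein Noxa, fell by 0.54 ± 0.08 after auxin and rose in FL auxin (0.94) and H373R auxin (0.62), with a lower level in H373R than in FL auxin (-0.32 ± 0.07, adjusted p = 0.0114). Bbc3, the BH3-only protein Puma, fell by 0.70 ± 0.15. Bak1, Pmaip1 and Bbc3 were the 3 of 14 tested BCL2 family genes that fell after auxin, and Hrk was the 1 that rose, beside 9.40% and 11.3% of all tested genes. With trends removed 3 fell and 1 rose, and without EV untreated replicate 1, 3 fell and 2 rose.

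Among 20 tested paralogs, 6 fell and 4 rose after auxin (Plk3, Cdkn1c, Tob2 and Trp53inp2), beside 9.40% and 11.3% of all tested genes. With trends removed 7 fell and 5 rose, and without EV untreated replicate 1, 6 fell and 4 rose. Tob1, an antiproliferative relative of Btg2, fell by 0.47 ± 0.06, and Plk3, a relative of Plk2, rose by 0.59 ± 0.08. Plk3 was higher in H373R auxin than in FL auxin, at 42.8 ± 1.61 against 30.9 ± 1.44 CPM (edgeR adjusted p = 0.00122), while Plk2 was not called between them.

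The number of called cell cycle genes of the kind that p21 lowers through the DREAM repressor complex depended on the processing. Of 20 such genes, 1 rose and 1 fell after auxin, beside 11.3% and 9.40% of all tested genes, with a median of -0.04 beside -0.74 for the 10 genes. With trends removed 3 rose and 5 fell, beside 14.5% and 15.9% of tested genes, and without EV untreated replicate 1, 2 rose and 6 fell, beside 15.96% and 17.4%. Foxm1, a mitotic transcription factor, rose by 0.26 ± 0.06 (edgeR adjusted p = 0.00596), and Mybl2, an S phase transcription factor, fell by 0.20 ± 0.05 (adjusted p = 0.00939). In FL auxin against EV auxin 5 rose, with Plk1 and Mybl2 among them, and 1 fell (Cenpf, -0.50), beside 11.1% and 13.4% of tested genes. In H373R auxin 3 rose (Mybl2, Cdc25c and E2f1) and 3 fell (Cenpf at -0.60, Top2a and Mki67), beside 10.03% and 11.7%. With trends removed 6 rose and 3 fell in FL auxin and 6 rose and 4 fell in H373R auxin, and without EV untreated replicate 1, 6 rose and 5 fell in FL auxin and 4 rose and 3 fell in H373R auxin.

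Of 11 tested immediate early genes, which respond to growth signals and handling, 4 rose (Myc, Fos, Ier3 and Egr1) and none fell after auxin, beside 11.3% and 9.40% of all tested genes, with a median of 0.27. With trends removed 3 rose and 1 fell, and without EV untreated replicate 1, 5 rose and none fell. Myc rose from 19.0 ± 1.57 to 29.0 ± 0.0780 CPM (0.61 ± 0.08), Fos by 0.45 ± 0.10 and Ier3 by 0.33 ± 0.08, and their part in the changes of the 10 genes was not tested.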

How the data were processed

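RNA-seq libraries of 11 samples were analysed. The authors deposited raw counts per gene symbol and TPM per gene symbol for the same libraries, both used as deposited. Per the submitters' processing notes, featureCounts, Subread 2.0.3, DESeq2 and the builds mm10 and GRCm38 were named, without roles. The aligner, the annotation and the strand setting of the counting are not given in the sources used here, while the library kit is directional per the labels. Reads of overlapping genes therefore cannot be told apart: 7.7% of the exon bases of Cdkn1a are annotated to an antisense transcript as well.

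The test was the quasi-likelihood F test of edgeR 4.0.16 (R 4.3.3) with TMM scaling. Genes passing filterByExpr numbered 16420. A single model held 1 mean per group for the 11 libraries, so that EV auxin borrows the spread of the others, and 6 comparisons were drawn from it. P-values were adjusted by Benjamini-Hochberg over the tested genes, with a threshold of 0.05. Log2 fold changes carry the model's SE, and CPM values are TMM-scaled. The common biological coefficient of variation was 0.0578. The 10 genes and the lists were chosen with earlier results of these data known, so their counts are descriptive. All 10 genes are named, and from each list the 3 genes with the smallest adjusted p in EV auxin against EV untreated. Other list genes, those behind small counts, were named after their values were seen. Some called list genes are not reported here by name.

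Alternatives were DESeq2 1.42.0, limma 3.58.1 on log2(TPM + 1), other scalings, filters, pseudocounts, designs and thresholds, and leaving out each library. Removal of GC and length trends in the counts of each library used spline fits on 5 degrees of freedom. Repeats of the list counts with these trends removed and without EV untreated replicate 1 were added after the data were seen. The scripts were tested on simulated counts. Coordinates are those of GENCODE M21 and RefSeq on GRCm38.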

Additional observations from a re-analysis of the deposited data

How the results depend on the processing

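Of 1500 single values of the 10 genes under the alternatives, 1352 kept their direction and side of the threshold, 57 lost and 48 gained the threshold, and 43 changed sign. Of the 34 values called, 25 were called in every alternative and none changed sign. The count of genes called in FL auxin against EV auxin, 5, was 3 with limma on log2(TPM + 1), on log2(TPM + 0.1) or without a TPM filter and at an adjusted p under 0.01, and 2 to 7 when each library was left out. In H373R auxin against EV auxin it was 3 with limma without a TPM filter, and 3 to 7 with a library left out. Between H373R and FL auxin it was 1 (Cdkn1a) rather than 0 without a low-count filter, with only the libraries compared, with limma at either pseudocount, with GC and length trends removed and with the replicate block, alone or with those trends removed, and 0 to 1 with a library left out. The replicate numbers did not pair the libraries: correlations of same-numbered deviations were -0.09 to 0.28. With the replicate block 8 genes were called in EV auxin against EV untreated and 6 in FL auxin against EV auxin. Over all tested genes the block fit called 3197 and 3978 in these comparisons, in either direction. The FL auxin count against EV auxin was 7 without a low-count filter (4227 genes called in all) and with only the libraries compared (4969). It was 6 with DESeq2 (3566) and RLE scaling (4033). The limma fits that gave 3 called 3706, 3674 and 3270 genes in all. In H373R auxin against EV auxin the count was 7 without a low-count filter (3839) and with only the libraries compared (5909). For the 13 cell death targets, FL auxin called 7 (trends removed) or 5 (without EV untreated replicate 1) and H373R auxin 5 (trends removed) in place of 3. For the 22 others, H373R auxin called 11 or 9 in place of 5. With the same settings the p53 regulators called in H373R auxin were 10 and 10 in place of 6. The cell cycle genes called were 8 and 8 in place of 2 after auxin, 11 without EV untreated replicate 1 in place of 6 in FL auxin, and 10 with trends removed in place of 6 in H373R auxin. Calls over all tested genes rose as well, given here with trends removed and then without EV untreated replicate 1. After auxin they were 4997 and 5444 in place of 3392. In FL auxin they were 5874 and 5800 in place of 4016, and in H373R auxin 5078 and 5397 in place of 3570. The cause of these shifts was not tested. The sign changes concerned values that had not passed the threshold in the reported test. Trp53 in FL auxin against EV auxin was 0.015 with RLE scaling and with DESeq2, 0.0048 without a low-count filter, 0.0094 with only the libraries compared, 0.00081 with the replicate block, 0.024 with trends removed, 0.023 with trends removed and the block, and -0.015 to 0.020 with a library left out. With trends removed, and then with the block added, the following changed sign. In FL auxin against EV auxin Mdm2 was 0.017 and 0.012 and Zmat3 0.057 and 0.050, and in H373R auxin against EV auxin Zmat3 was 0.039 and 0.032. In H373R against FL auxin Ccng1 was 0.00998 and 0.00985, Btg2 -0.0037 and -0.0030, Trp53inp1 0.0075 and 0.0071, Bax -0.092 and -0.092, and Phlda3 -0.021 and -0.018. With a library left out, H373R against FL auxin ranged from -0.070 to 0.014 for Ccng1, -0.0062 to 0.056 for Btg2, -0.064 to 0.068 for Bax and -0.019 to 0.19 for Phlda3. Zmat3 in FL auxin against EV auxin ranged from -0.14 to 0.046. Against EV untreated, Bax ranged from -0.10 to 0.079 in FL auxin and from -0.10 to 0.082 in H373R auxin, and Cdkn1a from -0.056 to 0.027 in H373R auxin. With 2 EV auxin libraries the precision of every comparison with that group is limited, and leaving out either moved both rescue counts by over 1.5 times.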

Other observations

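Over the 11 libraries, the genes whose level was most like that of Cdkn1a, by Pearson correlation of log2 CPM among 10071 candidates outside the 10 genes, were Galk2 (r = 0.961), Sdc4 (0.958), Mthfd2 (0.955), Tmem19 (0.955) and Rcc1 (0.953). The points share library, depth and group, so these values are a description and carry no test. Rcc1, the nucleotide exchange factor of Ran, was at 204 CPM in EV untreated, 136 in EV auxin, 196 in FL auxin and 195 in H373R auxin. Sdc4, a cell surface proteoglycan, was at 89.7, 66.5, 88.7 and 91.4 CPM in the same order, and Mthfd2, an enzyme of mitochondrial folate metabolism, at 202, 149, 185 and 195 CPM. Both Sdc4 and Rcc1 fell after auxin and were called in neither comparison of reintroduced CTCF with EV untreated (edgeR). The range of Galk2 was narrow, from 26.9 CPM in EV auxin to 30.3 in EV untreated, and its difference after auxin did not pass (edgeR adjusted p = 0.0552). None of the 5 was called between H373R and FL auxin.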
